A study of Mus musculus with 6 samples.

Results

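The Schlafen genes were followed in RNA-seq libraries of mTECs, murine renal tubular epithelial cells. The 7 genes Slfn1, Slfn2, Slfn3, Slfn4, Slfn5, Slfn8 and Slfn9 were taken by symbol from a table of 22442 genes. There were 6 libraries, 3 labelled LPS and 3 labelled LPSKD. All cells received LPS, a lipopolysaccharide of the bacterial outer membrane, at 20 μg/ml for 24 h. Before that, those labelled LPS were transfected with a negative control and those labelled LPSKD with an siRNA. The design text names the latter group as Stat3-silenced. The sample labels speak of magnetically sorted cells, while the study's methods speak of an immortalised line, and the labels do not say whether the 3 libraries of a group came from separate cultures. P-values therefore measure only the spread between these libraries, which may be technical. No library of cells without LPS was analysed here, so induction by LPS was not measured.

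Schlafen proteins are found in mammals and take their name from the German word for sleep, after the growth arrest that Slfn1 caused in T cells. Most of the mouse genes lie side by side in a cluster, and type I interferon is known to raise many of them. The shortest proteins, Slfn1 and Slfn2, hold the N-terminal Schlafen core, Slfn3 and Slfn4 are of intermediate length, and Slfn5, Slfn8 and Slfn9 add a C-terminal helicase-like domain. Slfn2 is known for keeping T cells quiescent and for binding tRNA and guarding it from cleavage under oxidative stress.

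The values are FPKM, fragments scaled to the length of the gene in kilobases and to the total of the library, so levels can be compared between genes per length. The fragments behind each value were recovered as whole numbers, with library totals between 24084827 and 25422171. Depth was thus even between the groups. Stat3, the targeted gene, stood at 34.6, 31.4 and 35.2 FPKM in the libraries labelled LPS and at 30.8, 35.2 and 34.3 FPKM in those labelled LPSKD. Its groups overlapped, with a log2 difference of -0.01 (limma, Benjamini-Hochberg adjusted p = 0.944). The transcript therefore did not separate the groups, which keep their label names here, and every direction below is between labels. The study reports knockdown of Stat3 in mTECs, seen by real-time PCR and by western blot. Those measurements were not used here, and whether they came from these cultures is not stated. For mouse Stat3 its supplement lists an shRNA, while the labels name an siRNA. The epithelial genes Krt8, Epcam and Cdh1 stood at means of 1205, 307 and 135 FPKM in the libraries labelled LPS. Markers of tubule segments were mixed. Lrp2, a receptor of the proximal tubule, had at most 3 fragments in any library, and Slc34a1, Umod and Aqp2 were at 0 in all 6. Cubn, the partner receptor of Lrp2, had 221 to 300 fragments, and the water channel Aqp1 had 77 to 189 fragments and means of 4.33 and 8.34 FPKM, higher in the libraries labelled LPSKD (limma adjusted p = 0.0174).

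All 7 Schlafen genes lie on chromosome 11 between bases 82951349 and 83215154 of GRCm38, a span of 264 kb. Slfn5, Slfn2, Slfn1, Slfn4 and Slfn3 are on the plus strand, and Slfn9 and Slfn8 on the minus strand. The table held 2 further Schlafen symbols that are not among the 7. Slfn14, next to the cluster, had between 0 and 8 fragments per library, and Slfnl1, on chromosome 4, had between 0 and 3.

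The promoters of 3 members are printed because they hold the contrast between Slfn2, the abundant member, and the similar pair of Slfn8 and Slfn9. Each runs from 250 bases before to 50 bases after the gene's start in RefSeq (GRCm38.p6), read 5′ to 3′ along the gene. Capitals mark matches to the core of the interferon response element, which is GAAA and GAAA with any 2 bases between them, here as its reverse complement. The windows are chr11:83064862-83065161 on the plus strand for Slfn2, chr11:83020761-83021060 on the minus strand for Slfn8 and chr11:82991781-82992080 on the minus strand for Slfn9.
Slfn2: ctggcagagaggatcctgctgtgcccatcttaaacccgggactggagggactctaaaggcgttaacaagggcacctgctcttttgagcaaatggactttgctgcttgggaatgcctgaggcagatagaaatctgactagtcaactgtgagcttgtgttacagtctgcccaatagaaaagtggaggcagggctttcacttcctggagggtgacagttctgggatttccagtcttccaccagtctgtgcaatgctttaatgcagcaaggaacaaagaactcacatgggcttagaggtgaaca
Slfn8: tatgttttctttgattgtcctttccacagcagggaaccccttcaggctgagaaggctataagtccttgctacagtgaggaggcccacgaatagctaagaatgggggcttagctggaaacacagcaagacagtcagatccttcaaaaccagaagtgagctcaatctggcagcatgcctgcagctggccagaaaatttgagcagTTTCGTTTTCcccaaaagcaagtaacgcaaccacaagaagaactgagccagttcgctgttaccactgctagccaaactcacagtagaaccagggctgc
Slfn9: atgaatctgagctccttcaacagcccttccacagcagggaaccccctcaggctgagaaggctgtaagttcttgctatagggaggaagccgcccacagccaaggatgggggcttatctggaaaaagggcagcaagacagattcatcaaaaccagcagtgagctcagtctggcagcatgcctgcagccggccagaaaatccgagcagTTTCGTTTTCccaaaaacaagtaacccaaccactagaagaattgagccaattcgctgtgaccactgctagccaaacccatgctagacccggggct

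Slfn8 and Slfn9 carried the match at the same letters, TTTCGTTTTC, starting 48 and 45 bases before the start. The same match was present in a second RefSeq window of Slfn8, from another start. Over 295 aligned pairs of bases their windows were 83.4% identical, against 53.0% for Slfn3 and Slfn4 and 52.2% for Slfn1 and Slfn2. Slfn5 had a match, GAAAAAGAAA, in the forward direction 155 bases before the start. No match to these letters was found in the windows of Slfn1, Slfn2, Slfn3 and Slfn4. Near matches with a changed letter were not searched, so their absence is not shown. On both strands, the STAT palindrome (TTC and GAA with any 3 bases between them) and an NF-kB motif (GGG and TTTCC with any 2 bases between them) had no match in any of the 7 members. The windows of Slfn2 and Slfn5 hold gggatttcc and ggggtttcc, with a shorter gap that this motif does not cover. Other spacings were not searched, so NF-kB sites of another form may be present. Of 32851 RefSeq windows of this length, 3.44% held the interferon response core, 8.3% the STAT palindrome and 1.63% the NF-kB motif. A match is a string of letters in the window, and binding was not measured here. The study's own ChIP-seq, from which it reports weaker binding at a set of genes that includes Slfn2 on Stat3 suppression, was not used.

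The RNA of Slfn2 was by far the most abundant of the family and fell to 48.9% of its mean in the libraries labelled LPSKD. Slfn2 stood at 58.9, 61.2 and 60.1 FPKM in the libraries labelled LPS, and at 30.4, 30.1 and 27.5 FPKM in those labelled LPSKD. Every library labelled LPSKD was below every library labelled LPS. The means were 60.1 ± 1.11 FPKM and 29.3 ± 1.59 FPKM (SD, n = 3 each). The log2 fold change was -1.03 (SE 0.05, 95% interval -1.15 to -0.91), with an adjusted p of 2.44e-05 in limma over the genes tested. The exact two-sided permutation test, which has 20 assignments, gave p = 0.1, the smallest that 3 against 3 allows. These values rested on 5060 and 2479 fragments in the 2 groups, a ratio of 48.8% with an exact interval of 46.5% to 51.2%, which covers counting error only. In bulk RNA, fewer cells that express a gene and less RNA per cell cannot be told apart.

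Slfn2 (ENSMUSG00000072620) spans chr11:83065112-83070678, with a coding length of 1137 bases. The study measured Slfn2 by real-time PCR with a pair of primers, which are printed because they place the amplified stretch on the gene. It had picked Slfn2 among protein-coding genes whose ChIP-seq binding and transcript were both lower on Stat3 suppression. That choice drew on the RNA-seq read here, so the lower level of Slfn2 is not a separate finding. The forward primer lies at chr11:83069284-83069306 and the reverse primer at chr11:83069419-83069440 (GRCm38). Every base of both lies in the coding sequence, and each matches the annotated transcripts of 1 gene.
Slfn2 forward primer: aaaatgggcatcagtgttgatct
Slfn2 reverse primer: ggagagcacatacagctagaga

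Of the 4 members with a mean of at least 0.5 FPKM, which are Slfn2, Slfn3, Slfn4 and Slfn9, only Slfn2 passed an adjusted p of 0.05. Among the 11723 genes tested in the same way, 3.23% passed in either direction and 1.66% passed as lower. Slfn1, Slfn5 and Slfn8 lay under that level and took their values from the same fit over all 16837 genes above 0, where 1.58% of genes passed and 0.837% passed as lower. None of those 3 passed in limma, although Slfn1 and Slfn8 had an unadjusted p of 0.0360 and 0.0274. The mean of all 7 members was lower in the libraries labelled LPSKD, as it was for 52.8% of the genes above 0. The groups did not overlap for 4 of the 7, Slfn1, Slfn2, Slfn3 and Slfn8, against 10.6% of the genes above 0 that were lower without overlap and 18.7% that did not overlap in either direction. Of the 4 tested members, Slfn2 and Slfn3 did not overlap, where 13.2% of tested genes were lower without overlap.

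**Figure D1:**
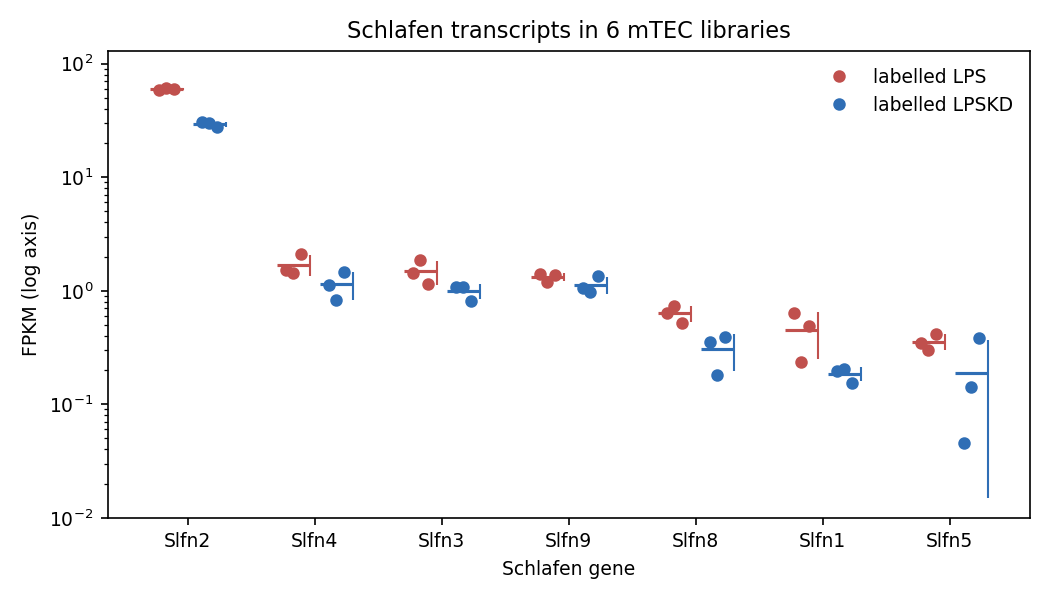
Level of each Schlafen gene in FPKM on a log axis, with 1 point per library, red for the label LPS and blue for LPSKD, and horizontal bars and vertical bars for the mean and SD of 3 libraries. Slfn2 stands above all other members in both groups, and the blue points lie under the red ones without overlap for Slfn2, Slfn3, Slfn8 and Slfn1.

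Among the libraries labelled LPS, the mean of Slfn2 was 35.4 times that of Slfn4, the next member per length. Slfn4, Slfn3 and Slfn9 followed at 1.70 ± 0.359, 1.48 ± 0.359 and 1.33 ± 0.119 FPKM (SD, n = 3), and neighbours in this order overlapped between libraries. Slfn8 came next at 0.631 ± 0.106 FPKM, with Slfn9 2.10 times higher and no overlap between them. Slfn8, Slfn1 and Slfn5 overlapped as neighbours. In the libraries labelled LPSKD the order of means was Slfn2, Slfn4, Slfn9, Slfn3, Slfn8, Slfn5 and Slfn1. The gaps without overlap were again those below Slfn2, of 25.8-fold, and between Slfn3 and Slfn8, of 3.23-fold.

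The summed level of the 7 genes was 66.0 ± 1.02 FPKM in the libraries labelled LPS and 33.3 ± 1.11 FPKM in those labelled LPSKD (SD, n = 3). Slfn2 made up 91.0% ± 0.326 and 88.1% ± 2.07 of these sums. Without Slfn2, the other 6 summed to 5.94 ± 0.149 FPKM and 3.94 ± 0.573 FPKM. The family total in these cells was thus mostly Slfn2. Slfn9 made up 2.01% ± 0.207 of the sum under the label LPS, and 3.39% ± 0.691 under LPSKD.

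Slfn1 (ENSMUSG00000078763, chr11:83116849-83122670), the other short member and the first known to arrest growth, rested on few fragments. Its fragments numbered 16, 6 and 12 under the label LPS, and 5, 5 and 4 under the label LPSKD. As FPKM these were 0.635, 0.238 and 0.485 against 0.198, 0.205 and 0.155. The groups did not overlap, but the nearest libraries were 6 and 5 fragments. The log2 fold change was -0.88 (SE 0.34) and the adjusted p in limma was 0.322. The ratio of the summed fragments was 41.0%, with a counting interval of 20.3% to 78.5%. This interval includes the ratio of Slfn2, so at this depth the pair of short members could not be told apart in their relative difference.

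The intermediate members Slfn3 and Slfn4 had lower means in the libraries labelled LPSKD, but neither passed the test. Slfn3 (ENSMUSG00000018986, chr11:83191330-83215154), which has been studied in regulatory T cells and in the maturation of gut epithelium, stood at 1.42, 1.86 and 1.15 FPKM against 1.08, 1.08 and 0.819 FPKM. The groups did not overlap, although the lowest library labelled LPS and the highest labelled LPSKD were 54 and 52 fragments. The log2 fold change was -0.51 (SE 0.26, 95% interval -1.11 to 0.09, limma adjusted p = 0.361).

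Slfn4 (ENSMUSG00000000204, chr11:83175186-83190216) is best known from interferon-treated myeloid cells. It stood at 1.53, 1.45 and 2.11 FPKM in the libraries labelled LPS and at 1.13, 0.827 and 1.46 FPKM in those labelled LPSKD. The groups overlapped by 1 library on each side. The log2 fold change was -0.55 (SE 0.27, 95% interval -1.17 to 0.07, limma adjusted p = 0.342), and it was -0.36 without the second library labelled LPSKD. In the libraries labelled LPS the coefficient of variation was 24.3% for Slfn3 and 21.2% for Slfn4, where their fragments allow 11.9% and 11.5% from counting. In those labelled LPSKD it was 15.3% for Slfn3 and 27.7% for Slfn4, where counting gives 14.5% and 14.0%. For Slfn2 it was 1.85% and 5.41% in the 2 groups, where counting gives 2.43% and 3.48%.

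Of the long members, Slfn8 was lower without overlap and Slfn9 overlapped between the groups. Slfn8 (ENSMUSG00000035208, chr11:83002158-83020810) was read from 43, 50 and 35 fragments under the label LPS, and from 24, 12 and 27 under LPSKD. These are 0.633, 0.736 and 0.525 FPKM against 0.352, 0.183 and 0.389 FPKM. The summed fragments stood at 49.0% with a counting interval of 35.7% to 66.8%, which lies below 100%. The same holds for the counting intervals of all other members except Slfn9, at 70.8% to 101.6%. Such intervals leave out the spread between libraries. The spread between replicates gave a log2 fold change of -0.87 (SE 0.32, 95% interval -1.62 to -0.13), and the adjusted p in limma was 0.286.

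Slfn9 (ENSMUSG00000069793, chr11:82978390-82991830) stood at 1.41, 1.19 and 1.38 FPKM in the libraries labelled LPS and at 1.06, 0.973 and 1.34 FPKM in those labelled LPSKD. The third library labelled LPSKD reached into the range of the other group. The log2 fold change was -0.23 (SE 0.23, 95% interval -0.77 to 0.30, limma adjusted p = 0.673). It was -0.14 without the second library labelled LPSKD and -0.35 without the third. The interval over all libraries includes 0 and ends short of the log2 fold change of Slfn2.

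Slfn5 (ENSMUSG00000054404, chr11:82951349-82964840), a nuclear member whose human counterpart has been described as a regulator of interferon-induced transcription, varied most between the libraries labelled LPSKD. The libraries labelled LPS held 23, 20 and 27 of its fragments, and those labelled LPSKD held 3, 9 and 26. As FPKM these were 0.348, 0.303 and 0.417 against 0.0453, 0.141 and 0.385. The third library labelled LPSKD was within the range of the group labelled LPS, and the first was at 3 fragments. The coefficient of variation in the libraries labelled LPSKD was 92.1%, where counting gives 28.1%. The log2 fold change was -0.82 (SE 0.44, limma adjusted p = 0.484). It was -1.28 without the third library labelled LPSKD and -0.41 without the first, so the size of the difference rested on single libraries.

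Whether the members moved by the same amount was asked by dividing each by Slfn2 within a library, for the 3 other members tested. Slfn9 stood at 2.40%, 1.95% and 2.29% of Slfn2 in the libraries labelled LPS and at 3.48%, 3.23% and 4.87% in those labelled LPSKD. The ratio was higher in every library labelled LPSKD, by 0.78 on the log2 scale, with an exact two-sided permutation p of 0.1, the smallest 3 against 3 can give. Slfn3 went from 2.41%, 3.04% and 1.91% to 3.57%, 3.59% and 2.98% of Slfn2, an overlap of 1 library on each side. Its log2 difference was 0.48 (exact permutation p = 0.2), and 0.31 without the third library labelled LPS. Slfn4 went from 2.60%, 2.36% and 3.50% to 3.72%, 2.74% and 5.30%, also with overlap, and a log2 difference of 0.44 (exact permutation p = 0.2). It was 0.20 without the third library labelled LPSKD and 0.67 without the second. With 3 such comparisons and a smallest p of 0.1, none can pass 0.05. Slfn2, the divisor, had a log2 fold change of -1.03, so any gene that differed little between the groups has a higher ratio too. The share of all genes with such a ratio was not computed, so whether the higher ratio is particular to Slfn9 was not tested. For the members at low level, the log2 differences in the ratio to Slfn2 were -0.15 for Slfn1, -0.35 for Slfn5 and -0.06 for Slfn8, with exact permutation p-values of 0.8, 0.7 and 0.9.

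**Figure D2:**
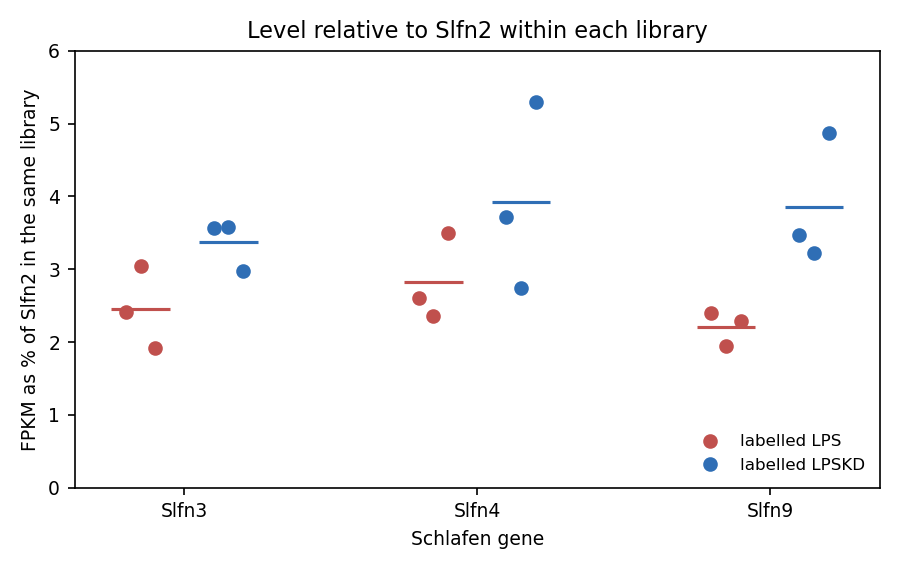
FPKM of Slfn3, Slfn4 and Slfn9 as a percentage of Slfn2 in the same library, with 1 point per library, red for the label LPS and blue for LPSKD, and bars for the mean of 3. The groups do not overlap for Slfn9, where red points lie between 1.95% and 2.40% and blue points between 3.23% and 4.87%, and they overlap for Slfn3 and Slfn4.

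The similar genes Slfn8 and Slfn9 were also set against each other, a comparison chosen after their values were seen. Slfn8 stood at 44.8%, 61.7% and 38.04% of Slfn9 in the libraries labelled LPS and at 33.3%, 18.8% and 29.0% in those labelled LPSKD. All libraries labelled LPSKD were lower, by 0.85 on the log2 scale (exact two-sided permutation p = 0.1, the smallest possible). The coding sequences of this pair have the same length of 2733 bases and were identical at 2534 of them (92.7%). How the authors assigned fragments that match both genes is not given in the sources used here, so the values of the pair are uncertain to that extent.

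Shared sequence was measured as the percentage of all 31-base stretches of a coding sequence that also occur in a transcript of another gene (GENCODE M21, either strand). It was lowest for Slfn1, at 3.66%, and stood at 13.8% for Slfn2, mostly through Slfn4 at 10.3%. Slfn3 and Slfn4 shared 39.2% and 43.7% with other genes, chiefly each other and the neighbouring pseudogene Gm11427. Their coding sequences were 92.1% identical where aligned. Slfn8 and Slfn9 shared 29.2% and 35.8%, with each other and with the pseudogene Slfn10-ps. Slfn5 shared 19.2%, all of it with Slfn5os, an antisense RNA that overlaps the gene. Without a statement that strand was used in counting, fragments of Slfn5 and Slfn5os cannot be told apart. Only Slfn1 shared less than Slfn2. Slfn2 also shared 4.07% of its stretches with Slfn3. In the libraries labelled LPS it had a mean of 1687 fragments, against 75.7 for Slfn4 and 70.3 for Slfn3. How fragments that match Slfn2 and either of these genes were assigned is not given. The values of Slfn3 and Slfn4, and their ratios to Slfn2, are uncertain to that extent. The part of Slfn2 fragments in them was not tested.

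**Figure D3:**
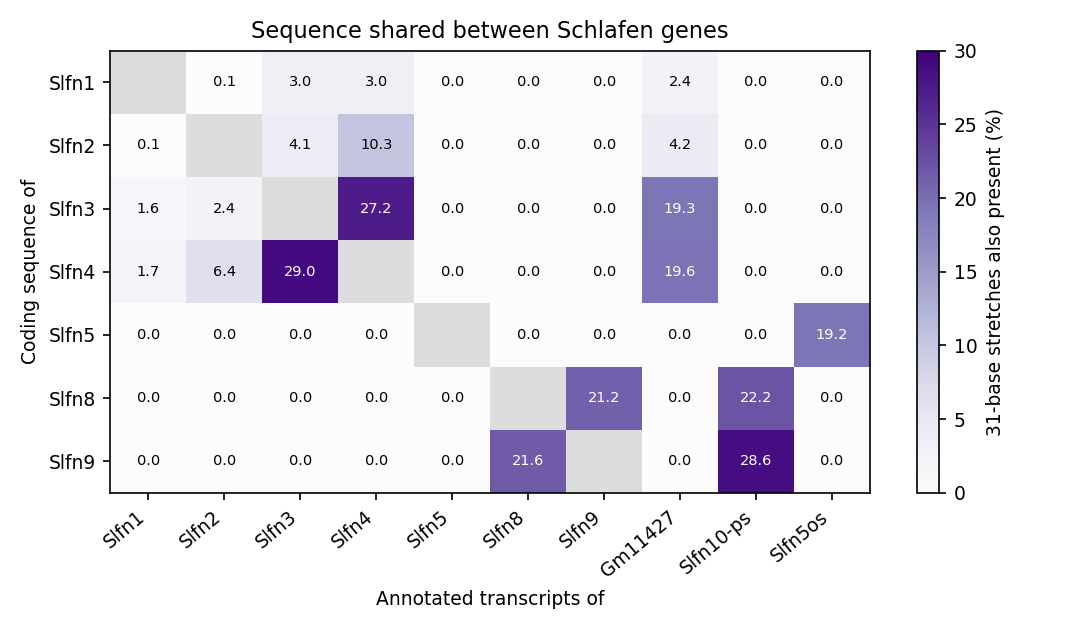
Percentage of the 31-base stretches of each Schlafen coding sequence (rows) that occur in annotated transcripts of each other Schlafen gene or of a related transcript (columns), with darker cells for higher values. Blocks of 27.2% and 29.0% join Slfn3 with Slfn4, blocks of 21.2% and 21.6% join Slfn8 with Slfn9, and the row of Slfn2 reaches 10.3% with Slfn4.

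None of the tested genes on either side of the cluster passed the test. Within 300 kb of the cluster the table held 16 other genes, of which 8 were tested, among them Zfp830, Lig3, Rffl, Rad51d, Nle1, Ap2b1 and Taf15. In limma 0 of the 8 passed, and 0 had an unadjusted p under 0.05, while 3.23% of all tested genes passed. Their log2 fold changes lay between -0.09 for Taf15 and 0.07 for Lig3, with a median of -0.03. Lig3, a DNA ligase, stood at 31.3 ± 0.690 FPKM and 32.8 ± 1.13 FPKM (SD, n = 3), and Ap2b1, a subunit of the clathrin adaptor, at 188 ± 2.29 FPKM and 182 ± 2.14 FPKM. The levels of Ap2b1 did not overlap between the groups but differed by -0.05 on the log2 scale (adjusted p = 0.499).

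**Figure D4:**
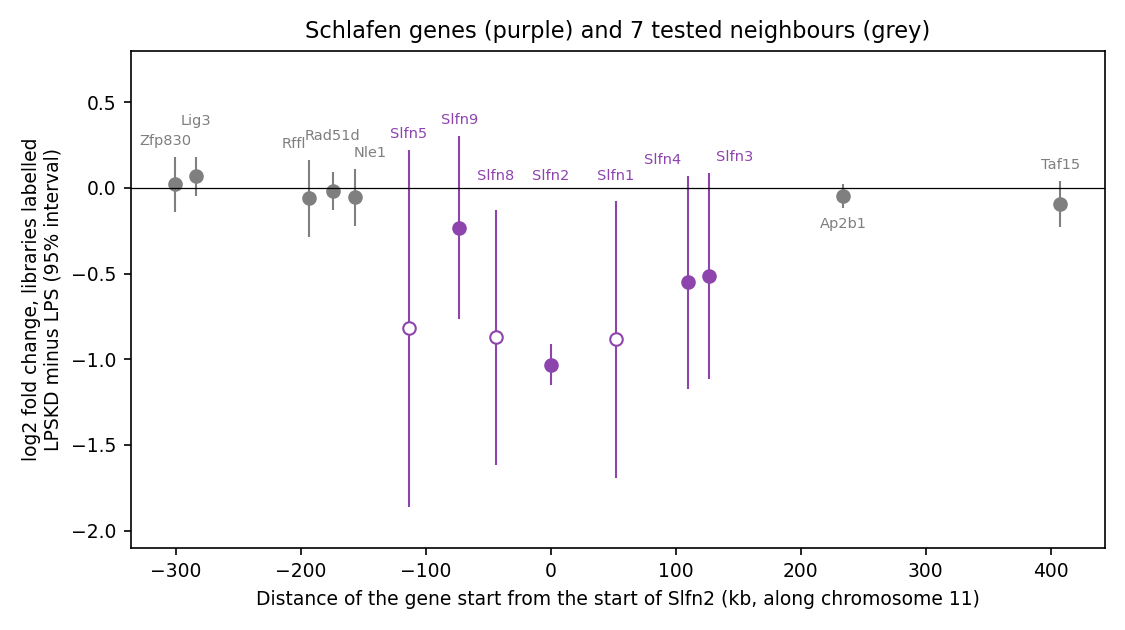
Log2 fold change of each gene, libraries labelled LPSKD minus LPS, against the distance in kb of its start from that of Slfn2 along chromosome 11, with 95% intervals, purple for Schlafen genes (open points under a mean of 0.5 FPKM) and grey for 7 of the tested neighbours. The grey points lie between -0.09 and 0.07, and Slfn2 at -1.03 has the narrowest interval of the Schlafen genes.

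Genes related to the Schlafen family by function were read from 4 lists, chosen with earlier results of these data known. In the list of the interferon receptor and of ISGF3, the complex that drives interferon-stimulated genes, 4 of 9 tested genes were lower and 0 higher, where 1.66% of all tested genes passed as lower. Irf7, which amplifies the response, went from 9.59 ± 0.921 FPKM to 1.64 ± 0.694 FPKM (SD, n = 3; log2 fold change -2.55, limma adjusted p = 0.00157). Irf9 and Stat2, both subunits of ISGF3, differed by -1.94 and -0.52 on the log2 scale, past the threshold with adjusted p-values of 6.51e-05 and 0.0131. The receptor chains Ifnar1 and Ifnar2 and the kinases Jak1 and Tyk2 did not pass, with log2 fold changes of 0.02, 0.25, 0.04 and -0.01. The median of the list was -0.19, against -0.01 over all genes tested.

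Of the list of interferon-stimulated genes, 20 of 29 tested were lower and 0 higher, with a median log2 fold change of -1.30, beside 1.66% lower and a median of -0.01 over all genes tested. The largest differences were in Usp18, which removes ISG15 from proteins, at -3.83, in Xaf1 at -3.66 and in Ifit1, which binds viral RNA, at -3.54. Slfn2, at -1.03, was a smaller difference than the median of that list, and the other tested Schlafen genes lay between -0.55 and -0.23.

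In the list of tRNA cleavage and its guards, the setting in which Slfn2 is known to act, 0 of 8 tested genes passed in either direction and the median was -0.11. Its ribonuclease Ang differed by 0.31 on the log2 scale (limma adjusted p = 0.728), and its tRNA methyltransferases Nsun2 and Trdmt1 by -0.06 and -0.09 (adjusted p = 0.422 and 0.914). Of the list of growth arrest and quiescence, 2 of 9 tested genes were lower and 0 higher, beside the same 1.66%, with a median of -0.03. These were Foxo1, a transcription factor of quiescence, from 29.9 ± 0.682 to 24.4 ± 1.56 FPKM (SD, n = 3), and Klf6, from 196 ± 6.54 to 174 ± 2.98 FPKM. Their log2 differences were -0.30 and -0.17, with adjusted p-values of 0.0396 and 0.0435 in limma, and the count of 2 fell to 0 without the filter on low levels, without the trend and in most fits without 1 library.

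Schlafen genes are abundant in immune cells, so markers of such cells were read beside them. Of 15 immune markers 8 had at most 10 fragments in every library, among them the B cell marker Ms4a1 at 0 or 1. Ptprc, the pan-leukocyte marker, stood at 0.880 ± 0.202 FPKM and 0.818 ± 0.387 FPKM (SD, n = 3). Of the 7 tested, 1 passed, beside 3.23% of all tested genes. This was Csf1r, which was higher in the libraries labelled LPSKD, from 24.4 ± 2.74 to 33.3 ± 0.583 FPKM (limma adjusted p = 0.0208). The summed level of the list ranged from 61.1 to 66.9 FPKM in the libraries labelled LPS and from 62.8 to 76.5 FPKM in those labelled LPSKD, with Csf1r the largest part of it. The other 6 tested had lower means in the libraries labelled LPSKD without passing, from -0.04 for Lyz2 to -0.56 for Cd8a on the log2 scale, and the median over the 7 was -0.30. Cd68 was the 1 of these 6 whose groups did not overlap, at -0.30. The part of immune cells in the Schlafen values was not tested. Among tubule and epithelial markers, 10 of 16 were tested, 1 was lower (Krt18) and 4 were higher (Aqp1, Pax2, Pax8 and Cdh16), again beside 3.23%. Their sums were 3237 to 3315 FPKM and 3197 to 3230 FPKM, and the part of these shifts in the Schlafen values was not tested. Of 7 fibroblast and endothelial markers 6 were tested and 0 passed, with sums of 14.0 to 19.0 FPKM and 9.74 to 19.8 FPKM.

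The genes whose pattern over the 6 libraries was nearest to each tested member were found by Euclidean distance of centred log2 values. For Slfn2 they were Parp9, an interferon-inducible ADP-ribosyltransferase family member, at a distance of 0.205, Ifi204, an interferon-inducible DNA sensor, at 0.261, and Hmga2, a chromatin protein of fetal and tumour cells, at 0.267. The median distance over tested genes was 1.29 from Slfn2, 0.521 from Slfn9, 0.872 from Slfn3 and 0.976 from Slfn4. For Slfn9 they were Tnc, Def6 and Nfkbil1, at 0.0962, 0.0978 and 0.106. Slfn3 was nearest to Dohh, Ces2e and Usp17la, at 0.170, 0.184 and 0.204, and Slfn4 to Crip1, Tmem80 and Gm10282, at 0.340, 0.345 and 0.362. No gene was named for more than 1 member.

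The direction of each member's difference was the same under 16 other ways of computing it, from another pseudocount to the omission of each library. Among these, the filters, the fit without trend and the replicate block leave the fold change itself as it is and act only on its p-value. They therefore could not change a direction. Slfn2 kept an adjusted p between 1.43e-07 and 0.00284 and a log2 fold change between -1.06 and -0.99. No other member passed in any of them. A pseudocount of 1 in place of 0.1 brought the low members nearer to 0, to -0.28 for Slfn1, -0.20 for Slfn5 and -0.32 for Slfn8.

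**Figure D5:**
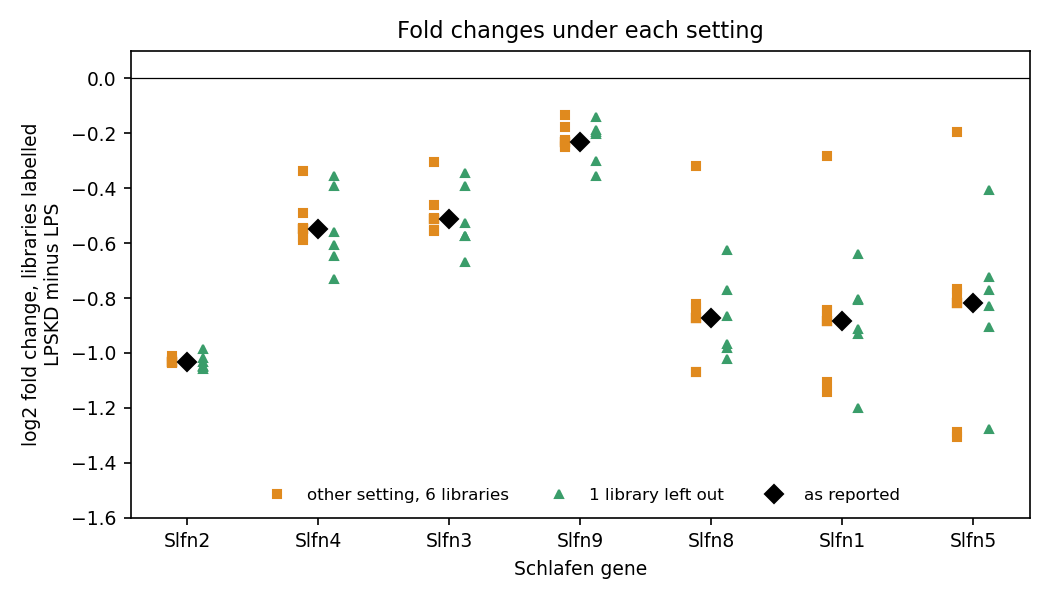
Log2 fold change of each Schlafen gene, libraries labelled LPSKD minus LPS, as reported (diamonds), under 10 other settings with all 6 libraries (squares) and without each library in turn (triangles). All points lie below 0, those of Slfn2 between -1.06 and -0.99 and those of Slfn5 between -1.30 and -0.20. Squares of the filters, of the fit without trend and of the replicate block equal the reported value by construction.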

How the data were processed

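RNA-seq of 3 libraries labelled LPS and 3 labelled LPSKD was read from a table of FPKM values deposited by the authors, in which each library had a column of its own. The submitters' processing notes name HISAT2 2.0, StringTie 1.3.0 and Bowtie 0.12.2 and the builds mm8 and GRCh38.p13 without a role; the latter is a human build, and the step, gene models and filters behind the values are not given in the sources used here. No strand setting is given either. ChIP-seq and the other experiments were not used here.

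Of 22442 Ensembl identifiers, 22399 matched a symbol in GENCODE M21. FPKM times gene length and library total gave whole fragments (within 0.0001) for 100% of the 16837 genes above 0, 97.5% of which fitted the merged coding length, less 12 bases at most. The remaining genes could take any of a wide range of lengths, so their fit carries little weight. With totals raised by 0.1%, 44 of the first 2000 genes above 0 fitted the coding length. Depth was 24084827 to 25422171 fragments per library. Counting intervals are exact at 95% and cover counting error only.

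Tests used limma 3.58.1 in R 4.3.3 (lmFit, eBayes with trend) on log2(FPKM + 0.1), so fold changes of low genes are understated, for 11723 genes whose mean FPKM reached 0.5, with no covariate and Benjamini-Hochberg adjustment over all of them at 0.05. Exact permutation tests were two-sided. Simulated data with log2 changes of 1 and 10% spread returned 189 of 198 changed genes (95.5%), with 14 unchanged genes called of 11680 tested. Of changed genes with at most 100 fragments, 18 of 27 were returned. Some members varied more than was simulated. Slfn4 varied by 21.2% and 27.7% in the libraries labelled LPS and LPSKD, where counting gives 11.5% and 14.0%. The simulated rates may be too high for such genes. Promoters came from RefSeq (7 of 7 members matched), and alignments used Biopython 1.88. Same-numbered libraries did not deviate together, so no block was used.

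Genes were named by rule: the 7 members, Stat3, other Schlafen symbols, genes within 300 kb, the 3 largest called changes of each of 4 lists and the 3 nearest patterns of each tested member. Stat2, the receptor chains, Jak1, Tyk2, Ang, Nsun2, Trdmt1 and single markers were chosen after their values were seen. Some genes covered by the rule and lists are not reported here by name. The members and lists were chosen with earlier results of these data known. Alternatives tried were a pseudocount of 1 or 0.01, a filter at 1, 0.1 or none, quantile normalization, median centring, eBayes without trend, voom on the recovered fragments, a replicate block, and each library left out.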

Additional observations from a re-analysis of the deposited data

How the results depend on the processing

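Of the 7 members, Slfn2 was the only one past the threshold under all 16 alternatives, including the replicate block (adjusted p = 0.000887), and 0 of the tested neighbours passed under any. No pairing by replicate number was seen, as same-numbered libraries correlated at -0.02, -0.00 and -0.04 in their deviations from the group means. The labels do not say whether such libraries were prepared together, and these correlations cannot settle it. Over all tested genes, 379 passed; the count was 140 without the trend, 600 with voom on fragments, 213 with the replicate block and 158 to 357 without 1 library, with 158 without LPS replicate 3 and 176, 190 and 168 without LPSKD replicates 1, 2 and 3. The list of growth arrest fell from 2 genes to 1 with median centring, to 0 without a filter, without the trend or with the replicate block, and to 0 or 1 without 1 library. Stat3 differed by -0.064 to 0.044 without 1 library and so changed sign. As fragments in place of FPKM, Slfn2 was 84.3% and 79.5% of the family in the libraries labelled LPS and LPSKD. With stretches of 50 bases, the shared sequence fell to 1.14% for Slfn1, 6.34% for Slfn2, 22.3% for Slfn3, 24.7% for Slfn4, 16.0% for Slfn8 and 20.9% for Slfn9; the longer stretch allows fewer matches by construction. Slfn1, Slfn5 and Slfn8 had 3 to 50 fragments per library; in the libraries labelled LPSKD, replicates of Slfn5 and Slfn8 also varied by 92.1% and 35.8%, where counting gives 28.1% and 21.8%.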
